A study of Sus scrofa with 15 samples.

Results

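Cathepsins are proteases of lysosomes and lytic granules, and cystatin F is a secreted and endolysosomal inhibitor of some of them. The 9 genes described here were taken by symbol from the 29886 genes of the count table: the cysteine cathepsins *CTSB*, *CTSC*, *CTSH*, *CTSL*, *CTSS*, *CTSW* and *CTSZ*, the aspartic protease gene *CTSD*, and *CST7*, which encodes cystatin F. Of these, 8 were among the 10939 genes with enough counts to be tested, and *CTSL* was not. All libraries came from the same 5 pigs, 6 months old, with no treatment and no genetic change stated. Blood CD8α-high NK cells (conventional or cNK cells), liver CD8α-high NK cells and liver CD8α-dim NK cells (liver-resident or lrNK cells) were each sorted as CD3-negative and CD172a-negative cells, the liver cells after flushing of the organ through the portal vein, which gave 15 libraries. The liver populations were parted by surface CD8α, and the study's methods add a check of sorted cells for purity and with control stainings for T-bet and Eomes. Cells bearing CD172a, a marker of monocytes and macrophages, were depleted with magnetic beads and then gated out, while no B cell marker is named among those used to sort. Polyadenylated RNA was sequenced from the 3′ end, and between 2003499 and 5680221 reads were counted on genes per library.

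In cytotoxic lymphocytes, granzymes are made as inactive precursors. Cathepsin C, also called dipeptidyl peptidase I, removes the dipeptide that blocks their active site, and cathepsin H can stand in for it with granzyme B. Cystatin F reaches the same granules and can inhibit cathepsins C, H and L, so it can set a brake on granzyme maturation. Cathepsin W is found mainly in NK cells and cytotoxic T cells. Cathepsin S cuts the invariant chain CD74 during antigen presentation by MHC class II. Cathepsins B, Z and D degrade proteins in lysosomes of most cell types.

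Levels are given as CPM, the share of a library's counts after scaling by the TMM method, on edgeR's usual scale, as mean ± SD over 5 libraries. Because each transcript was read at its 3′ end, a count does not grow with transcript length. Differences are log2 fold changes from edgeR's quasi-likelihood test, with the standard error (SE) or the 95% interval, and adjusted p-values are by the Benjamini-Hochberg method over all 10939 genes. A gene was called at an adjusted p under 0.05, and "called" is used in this sense throughout. In bulk RNA, fewer cells of a type and less RNA per cell cannot be told apart.

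Before the results, the content of the sorted cells was checked with marker genes. The 10 NK cell markers summed to between 4357 and 6028 CPM in blood, 4857 and 5727 in liver CD8α-high and 3674 and 5859 in lrNK libraries. All 10 were tested, and 3 were called higher and 2 lower in lrNK cells against each population. *GNLY* fell to a mean of 21.5 CPM from 1438 in blood, and *CD8A*, the gene of the protein used to part the populations, to 43.4 from 466, while *NCR1* had 282 CPM against 50.8 and *KLRB1* 1387 against 275. Over single libraries *KLRB1* ran from 193 to 2316 CPM in lrNK cells and from 191 to 386 CPM in blood, so the ranges overlapped. The 6 B cell markers summed to between 222 and 699 CPM in lrNK libraries, against 10.9 to 110.4 in blood and 0.239 to 47.7 in liver CD8α-high libraries, with 5 of 5 tested markers called higher in lrNK cells against each and *CD79A* at 0 in all libraries. Of 13 macrophage and monocyte markers, *CD163*, *MARCO*, *C1QA*, *C1QB*, *CSF1R*, *CD5L* and *MS4A7* were at 0 in all 15 libraries, and the list summed to 0.341 to 8.14 CPM in blood, 0.717 to 3.27 in liver CD8α-high and 0 to 25.6 in lrNK libraries. The 1 macrophage marker with enough counts to be tested, the lysozyme gene *LYZ*, was called higher in lrNK than in liver CD8α-high cells, with means of 8.56 and 0.365 CPM, and not against blood. The 4 dendritic cell markers in the count table summed to 4.32 to 11.7 CPM in lrNK libraries, 0 to 0.271 in blood and 0 to 1.58 in liver CD8α-high libraries. The 1 of them that was tested, the chemokine receptor gene *XCR1*, was called higher in lrNK cells against both, at a mean of 8.63 CPM against 0.0542 and 0.0691, while *FLT3* and *CLEC9A* were at 0 in all lrNK libraries. Of 7 T cell markers, *CD4*, *CD5* and *CD28* were at 0 in all libraries, and *CD3G* gave most of the sum, at a mean of 865 CPM in blood, 825 in liver CD8α-high and 289 in lrNK cells. *CD3D* had 3.78, 7.38 and 8.43 CPM and *CD3E* 10.2, 9.03 and 2.12 CPM in the same order. The list summed to 637 to 1203 CPM in blood, 714 to 1076 in liver CD8α-high and 110 to 593 in lrNK libraries. The lrNK library of pig 3 stood apart from the other 4 lrNK libraries for several genes described here, and the values without it are given for *CTSB*, *CTSD*, *CST7* and *LAMP1*.

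Some of the cathepsin genes differed between lrNK cells and the CD8α-high populations, and cystatin F did not pass the test in any comparison. Against blood, *CTSB* and *CTSS* were called higher and *CTSD* lower in lrNK cells, 3 of the 8 genes tested, where 18.2% of all tested genes were called, 8.62% higher and 9.6% lower. Against liver CD8α-high cells, *CTSB*, *CTSS* and *CTSH* were called higher and *CTSD* lower, 4 of 8, where 14.6% of all tested genes were called, 6.96% higher and 7.68% lower. Between liver and blood CD8α-high cells 0 of 8 were called by edgeR, 0 had an unadjusted p under 0.05 and 0 were called by DESeq2, and 0.064% of all tested genes were called, 0.0457% higher and 0.0183% lower in the liver. The lrNK libraries take part in the first and the second of these comparisons, so these share samples. *CTSC*, *CTSW* and *CTSZ* also did not pass the test in any comparison.

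**Figure D1:**
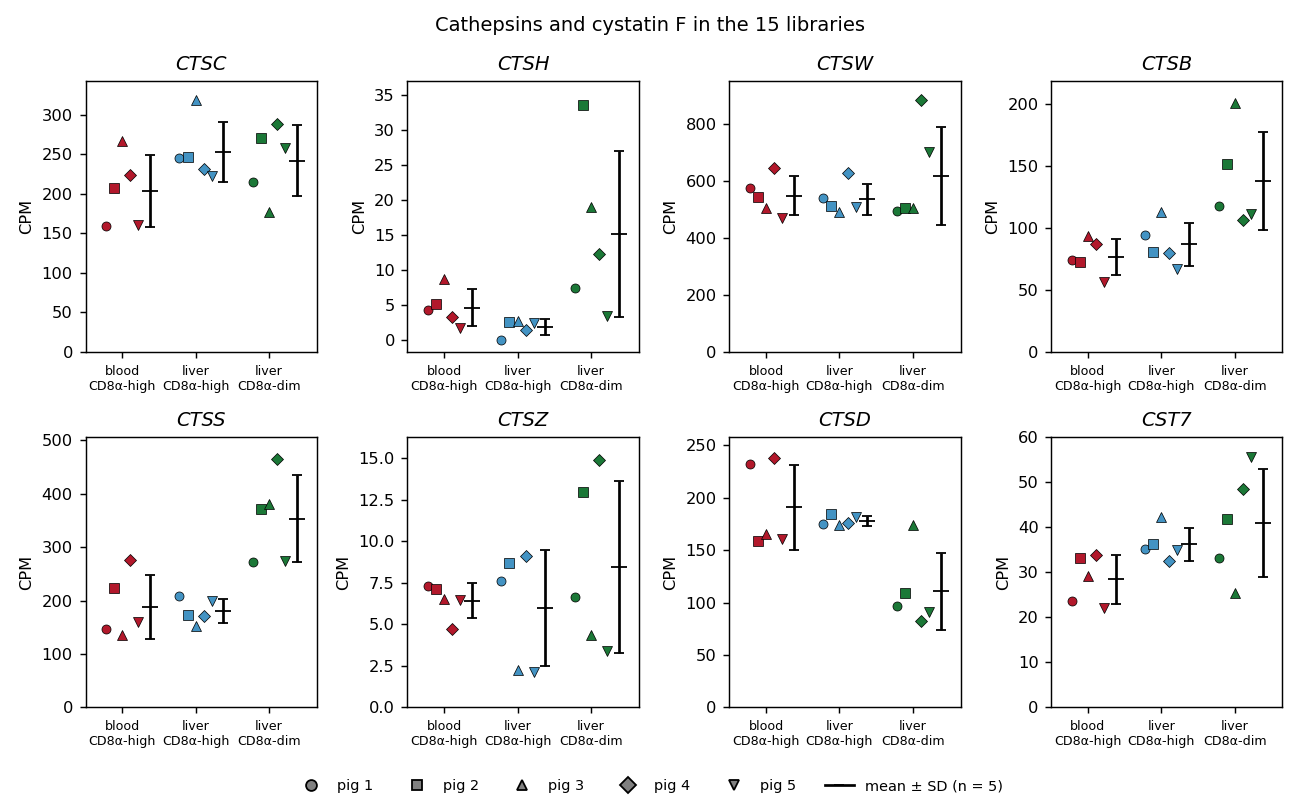
Levels in CPM (y axis) of the 8 tested genes in the 3 NK cell populations (x axis); each symbol is a library, its shape is the pig, and bars are mean ± SD (n = 5). The lrNK libraries lie above all blood libraries for *CTSB*, between 106 and 201 CPM, and mostly below them for *CTSD*.

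The median log2 fold change of the 8 genes was 0.46 in lrNK against blood cells, -0.04 in liver CD8α-high against blood cells and 0.35 in lrNK against liver CD8α-high cells, beside 0.01, -0.02 and 0.02 over all tested genes. The genes varied unequally across the 15 libraries. The root mean square deviation of log2 CPM from the gene's own mean was smallest for *CTSW*, at 0.24, and *CTSC*, at 0.28. It was 0.35 for *CST7*, 0.45 for both *CTSB* and *CTSD*, 0.53 for *CTSS* and 0.70 for *CTSZ*. *CTSH* varied most, at 1.39.

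*CTSC*, the gene of the main granzyme-activating peptidase, lies on chromosome 9 from 21726628 to 21761796 of the assembly Sscrofa11.1. Its levels in pigs 1 to 5 were 159, 207, 267, 224 and 161 CPM in blood CD8α-high cells. In liver CD8α-high cells they were 245, 246, 318, 231 and 223 CPM. In lrNK cells they were 216, 271, 177, 288 and 259 CPM. The 3 ranges overlapped, and pig 3 held the highest value in both CD8α-high populations and the lowest in lrNK cells. The means were 204 ± 45.6 (SD, n = 5), 253 ± 38.0 and 242 ± 45.0 CPM. Liver CD8α-high cells were above blood cells in 5 of 5 pigs, with a log2 fold change of 0.31 whose interval reached from -0.05 to 0.68. From blood, lrNK cells differed by 0.25 on the log2 scale (SE 0.18, adjusted p = 0.381, edgeR). Between lrNK and liver CD8α-high cells it was -0.06, and the interval from -0.43 to 0.30 bounds the difference that these libraries leave possible.

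*CTSH*, whose product is an aminopeptidase that can also activate granzyme B, lies on chromosome 7 from 48084882 to 48106072. It was a low gene in these cells. In blood it had 4.34, 5.21, 8.68, 3.25 and 1.71 CPM in pigs 1 to 5, from 5 to 32 counts per library. In liver CD8α-high cells it had 0, 2.64, 2.79, 1.38 and 2.39 CPM, from 0 to 10 counts. The lrNK libraries had 7.48, 33.6, 19.0, 12.4 and 3.40 CPM, from 13 to 70 counts. The lrNK range lay wholly above the liver CD8α-high range and overlapped the blood range, while each pig had more *CTSH* in its lrNK than in its blood library. The highest lrNK value, in pig 2, stood well above the others.

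The mean of *CTSH* was 15.2 ± 11.8 CPM in lrNK cells, 1.84 ± 1.17 in liver CD8α-high cells and 4.64 ± 2.61 in blood. The rise over liver CD8α-high cells had a log2 fold change of 3.00 (SE 0.74, interval 1.46 to 4.54, adjusted p = 0.00736, edgeR). Without pig 2 it was 2.64 and no longer called (adjusted p = 0.0751, edgeR). Against blood the log2 fold change was 1.68 (interval 0.23 to 3.13), which did not pass the adjusted threshold (adjusted p = 0.103, edgeR). The liver CD8α-high mean was the lowest of the 3, at a log2 fold change of -1.31 from blood, with an interval from -2.81 to 0.18. With so few counts, each single library is measured with low precision.

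*CTSL*, on chromosome 10 from 27668523 to 27674705, encodes an endopeptidase that cystatin F also inhibits. It had 0 counts in 13 of the 15 libraries, which allows up to 3 counts, or 0.517 to 1.46 CPM, in each of them. The lrNK libraries of pig 1 and pig 4 held 2 and 9 counts. With counts in only 2 libraries a two-sided exact permutation test can give no p below 0.444, so lrNK cells and blood could not be compared for this gene.

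*CTSW* was the most abundant of the 9 genes, and its product is the cathepsin most restricted to cytotoxic lymphocytes. It lies on chromosome 2 from 6446105 to 6450357. Blood libraries had 575, 544, 505, 644 and 468 CPM in pigs 1 to 5, and liver CD8α-high libraries had 538, 512, 491, 627 and 509 CPM. The lrNK libraries of pigs 1 to 3 lay close together, at 493, 503 and 503 CPM, while those of pigs 4 and 5 had 882 and 702 CPM. The populations overlapped, and the higher lrNK mean, 617 ± 172 CPM against 547 ± 67.5 in blood and 535 ± 54.0 in liver CD8α-high cells, came from the latter 2 libraries. The log2 fold change against blood was 0.17 (SE 0.17, interval -0.17 to 0.52, adjusted p = 0.545, edgeR). Against liver CD8α-high cells it was 0.20, with an interval from -0.14 to 0.55. Liver and blood CD8α-high cells differed by -0.03, with an interval from -0.38 to 0.31.

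*CTSS*, the gene of the cathepsin that trims the MHC class II invariant chain, lies on chromosome 4 from 98415273 to 98442952. Its levels in pigs 1 to 5 were 146, 224, 135, 276 and 159 CPM in blood. They were 208, 174, 152, 172 and 199.9 CPM in liver CD8α-high cells and 272, 371, 380.4, 466 and 275 CPM in lrNK cells. All lrNK libraries were above all liver CD8α-high libraries. They were also above every blood library but that of pig 4, which passed the lrNK libraries of pigs 1 and 5 by a small margin.

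Mean *CTSS* was 353 ± 81.3 CPM in lrNK cells, 188 ± 60.1 in blood and 181 ± 22.7 in liver CD8α-high cells, 1.87 and 1.95 times the blood and liver CD8α-high means. The log2 fold change was 0.91 against blood (SE 0.20, adjusted p = 0.00267, edgeR) and 0.96 against liver CD8α-high cells (SE 0.20, adjusted p = 0.00185, edgeR). Each pig had more *CTSS* in its lrNK library than in its blood and its liver CD8α-high library. The blood and liver CD8α-high means stood side by side, with a log2 difference of -0.06 and an interval from -0.47 to 0.36. Over 22 alternative analyses the log2 fold change against blood ran from 0.78 to 1.08, and the highest adjusted p was 0.0159 (edgeR or DESeq2), so the call was held in all of them.

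*CTSB* encodes a lysosomal cysteine protease of broad specificity. The gene lies on chromosome 14 from 15014139 to 15035081. It had 74.0, 72.1, 93.1, 86.7 and 56.0 CPM in the blood libraries of pigs 1 to 5. It had 94.3, 80.2, 112, 80.0 and 66.6 CPM in liver CD8α-high libraries and 118, 152, 201, 106 and 112 CPM in lrNK libraries. Every lrNK library was above every blood library, the only such case among the 8 genes in that comparison, where 6.18% of all tested genes lay wholly higher. Against liver CD8α-high cells the ranges met only through pig 3, whose liver CD8α-high library lay just above the lrNK libraries of pigs 4 and 5.

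The mean of *CTSB* rose from 76.4 ± 14.4 CPM in blood to 138 ± 39.5 in lrNK cells, by 0.85 on the log2 scale (SE 0.21, adjusted p = 0.00578, edgeR). Liver CD8α-high cells had 86.7 ± 17.4 CPM, and lrNK cells were higher by 0.66 on the log2 scale (SE 0.21, adjusted p = 0.0324, edgeR). Without the lrNK library of pig 3, the highest, the difference from blood was 0.69 (adjusted p = 0.0107, edgeR) and that from liver CD8α-high cells was 0.49 and no longer called (adjusted p = 0.0816, edgeR). The latter call was also lost without other pigs or single libraries, in 9 of 15 such fits. Between liver and blood CD8α-high cells the log2 difference was 0.18, with an interval from -0.25 to 0.61.

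*CTSZ*, on chromosome 17 from 59141497 to 59149377, encodes a carboxypeptidase and was low in all populations. Its levels ran from 4.70 to 7.32 CPM in blood, from 2.15 to 9.13 in liver CD8α-high cells and from 3.40 to 14.9 in lrNK cells, from 8 to 53 counts per library. The highest lrNK values were 13.0 CPM in pig 2 and 14.9 CPM in pig 4, and the other lrNK libraries lay within the range of the liver CD8α-high libraries. The log2 fold change of lrNK against blood cells was 0.39 with an interval from -0.79 to 1.57, too wide to show a difference of the size seen for *CTSB*. With the pig as a block it was 0.11, and it ran from -0.01 to 0.62 when a pig or a library was left out. The gene shares 3 bases with *NELFCD*, which had 25 to 74 counts per library, so reads at that end may be counted on either gene.

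*CTSD* went the other way from *CTSB* and *CTSS*. It encodes the main aspartic protease of lysosomes and lies on chromosome 2 from 1188548 to 1197642. Blood libraries had 233, 159, 165, 238 and 160.4 CPM in pigs 1 to 5, which falls into a pair of high values, in pigs 1 and 4, and 3 values near each other. Liver CD8α-high libraries were nearly even, at 175, 184, 174, 176 and 182 CPM. The lrNK libraries had 97.2, 109, 174, 82.3 and 91.2 CPM, so 4 of them lay below all CD8α-high libraries of either tissue and that of pig 3 lay among them.

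Mean *CTSD* was 111 ± 36.6 CPM in lrNK cells, 191 ± 40.5 in blood and 178 ± 4.70 in liver CD8α-high cells. It was lower in lrNK cells by a log2 fold change of -0.79 against blood (SE 0.19, adjusted p = 0.00596, edgeR) and -0.69 against liver CD8α-high cells (SE 0.19, adjusted p = 0.0180, edgeR). With the lrNK library of pig 3 left out, the log2 fold changes were -0.99 (adjusted p = 0.000101, edgeR) and -0.91 (adjusted p = 0.000304, edgeR). The call against blood was lost without pig 1 (-0.66, adjusted p = 0.0560, edgeR) and without pig 4 (-0.61, adjusted p = 0.0632, edgeR). It was kept in every fit that left out a single library, also the high blood library of either pig. The call against liver CD8α-high cells was lost without pig 1, 2, 4 or 5, at log2 fold changes of -0.66, -0.67, -0.60 and -0.62. Liver and blood CD8α-high cells differed by -0.10, with an interval from -0.50 to 0.30.

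**Figure D2:**
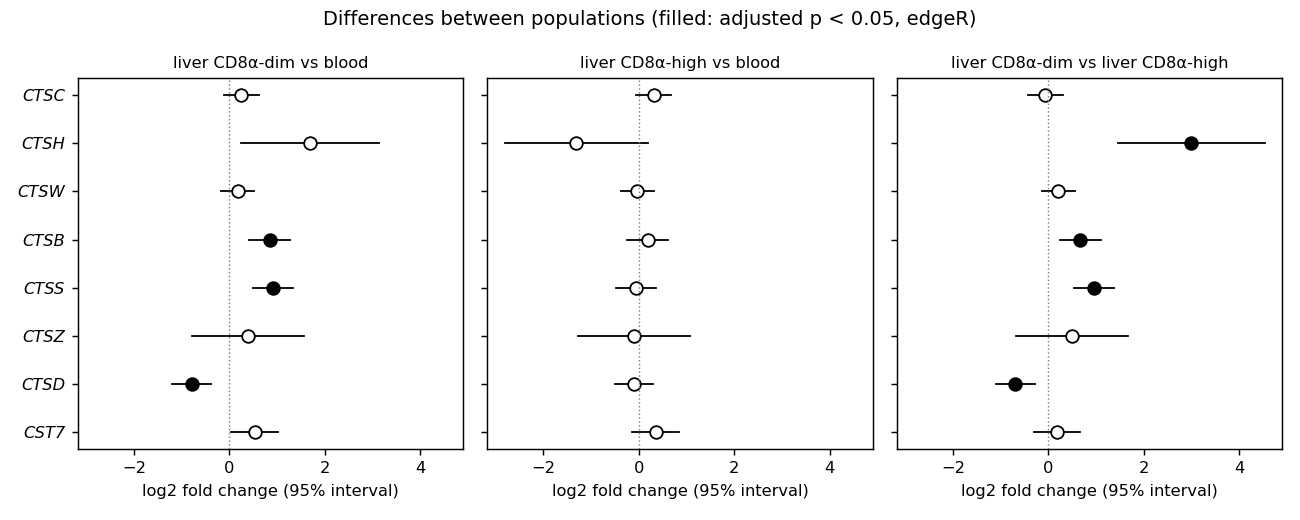
Log2 fold change (x axis) of the 8 tested genes (y axis) in the 3 comparisons, with 95% intervals from edgeR; filled points have an adjusted p under 0.05. Only *CTSB*, *CTSS* and *CTSD* are filled against blood, *CTSH* joins them against liver CD8α-high cells at 3.00, and no point is filled between liver and blood CD8α-high cells.

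*CST7*, on chromosome 17 from 30758000 to 30766472, encodes the inhibitor. Its levels in pigs 1 to 5 were 23.6, 33.2, 29.3, 34.0 and 22.2 CPM in blood and 35.2, 36.4, 42.4, 32.6 and 34.9 CPM in liver CD8α-high cells. In lrNK cells they were 33.2, 41.8, 25.3, 48.6 and 55.6 CPM. The ranges overlapped, with the lrNK library of pig 3 near the blood libraries and that of pig 5 the highest of all. Means were 28.4 ± 5.40 CPM in blood, 36.3 ± 3.68 in liver CD8α-high cells and 40.9 ± 12.02 in lrNK cells, so the order of the means was blood, liver CD8α-high, lrNK. The gap between the blood and liver CD8α-high means was larger than either SD, but neither pair of neighbours passed the test. Between blood and lrNK cells the difference was 0.53 on the log2 scale (SE 0.24, interval 0.04 to 1.02), short of the threshold (adjusted p = 0.137, edgeR), with 4 of 5 pigs higher. Without the lrNK library of pig 3, the lowest of the lrNK values, the log2 fold change was 0.68 and was called (adjusted p = 0.0321, edgeR). No other of 22 alternative analyses called it, with log2 fold changes down to 0.33 and adjusted p-values up to 0.503 (edgeR or DESeq2). Liver CD8α-high cells differed from blood by 0.35 (interval -0.14 to 0.84), and lrNK from liver CD8α-high cells by 0.18 (interval -0.31 to 0.67).

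The balance of the inhibitor and a protease it binds was followed as the log2 ratio of their CPM within each library, described without a test. A prior count of 2 was added to each gene before taking logs, which draws the ratios of genes with few counts, such as *CTSH*, toward 0. The ratio of *CST7* to *CTSC* was -2.81 ± 0.21 in blood, -2.77 ± 0.09 in liver CD8α-high cells and -2.58 ± 0.22 in lrNK cells. In blood it was -2.72, -2.62, -3.16, -2.70 and -2.83 in pigs 1 to 5. In lrNK cells it was -2.68, -2.68, -2.78, -2.55 and -2.20, so only pigs 4 and 5 lay above all blood libraries and the rest lay among them. Among lrNK libraries, both genes were lowest in pig 3.

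For *CTSH* the ratio was spread far more widely. The log2 ratio of *CST7* to *CTSH* was 2.60 ± 0.66 (SD, n = 5) in blood, 3.71 ± 0.25 (n = 4) in liver CD8α-high cells and 1.70 ± 1.44 (n = 5) in lrNK cells. The liver CD8α-high library of pig 1 was left out of the ratio because *CTSH* was at 0 counts there. The lrNK values were 2.07, 0.31, 0.40, 1.93 and 3.82 in pigs 1 to 5, and the low ones were those of the libraries with the most *CTSH*. A ratio to *CTSL* was not computed because *CTSL* was at 0 in most libraries.

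**Figure D3:**
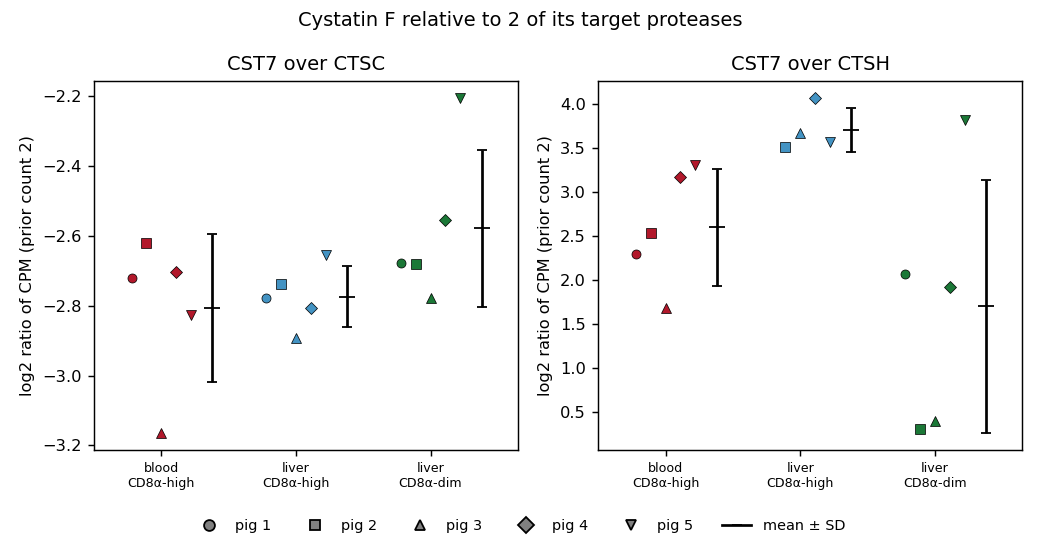
Log2 ratio of CPM with a prior count of 2 (y axis) of *CST7* to *CTSC* (left) and to *CTSH* (right) in each library of the 3 populations (x axis), with pigs as symbols and mean ± SD as bars (n = 5, but n = 4 for *CTSH* in liver CD8α-high cells, without the library at 0 counts). The ratio to *CTSC* stays between -3.16 and -2.20, while that to *CTSH* spans 0.31 to 4.07.

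Fewer genes had ranges that did not overlap than were called. Against blood this held for *CTSB* alone, as given above, while *CTSS* and *CTSD* overlapped. In lrNK against liver CD8α-high cells, *CTSH* and *CTSS* were wholly higher, 2 of 8 genes, where 5.18% of all tested genes were wholly higher, and *CTSB* and *CTSD* overlapped. No gene of the 8 was wholly lower in lrNK cells, in either comparison, beside 7.33% of all tested genes against blood and 6.67% against liver CD8α-high cells. Liver and blood CD8α-high cells overlapped for all 8, and 1.11% of all tested genes were wholly higher and 0.905% wholly lower in the liver cells.

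*CTSS* and *CTSH* are also made by antigen-presenting cells. Both were called higher in lrNK than in liver CD8α-high cells, as were all tested B cell markers. The B cell sum and these genes did not keep the same order over single libraries. In blood, pig 3 had the largest B cell sum, 110 CPM, with the lowest *CTSS*, 135 CPM, and the highest *CTSH*, 8.68 CPM. In the lrNK libraries of pigs 1 to 5 the 6 B cell markers summed to 441, 655, 222, 699 and 253 CPM. *CTSS* was highest in pig 4, which had the largest B cell sum, and *CTSH* was highest in pig 2, which had the next largest. In pig 3 the smallest B cell sum of the lrNK libraries stood beside the highest *CTSB* and the next to highest *CTSS* and *CTSH*. The part of B cells in these results was not tested. Of the macrophage list, lrNK libraries summed to 6.65, 11.0, 0, 25.6 and 6.79 CPM in pigs 1 to 5. The single gene *LYZ*, with 140 counts in these libraries, gave most of this and all of the sum of pig 4. The sum was highest in pig 4, which had the most *CTSS*, and next in pig 2, which had the most *CTSH*. It was 0 in pig 3, which had the most *CTSB*. The part of macrophages and dendritic cells, for which *LYZ* and *XCR1* are given above, was not tested either, and the CD172a gate would remove cells that bear that marker.

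The genes with the most similar course over the 15 libraries were found for each of the 8 genes among 3696 other genes with a mean of at least 50 CPM, by the root mean square difference of log2 CPM after centring each gene. For *CTSB* these were *PLCG2*, at 0.22, *SET* and *MAPRE2*. *CTSS* was followed by *LZIC*, at 0.29, *DBI* and *CNP*, and *CTSD* by *SAP25*, at 0.16, *NPRL2* and *EXOC2*. *CTSH* was nearest to *SLA-DRA*, at 0.80, *RTP4* and *SLA-DMA*, beside its own larger variation of 1.39, and *SLA-DRA* and *SLA-DMA* are MHC class II genes. *CTSC* was nearest to *COX7C*, at 0.17, *C2H11orf58* and *NDUFA4*, and *CTSW* to *ARPC2*, at 0.14, *UBE2L3* and *NCOA1*. The nearest to *CST7* were *SNRPG*, at 0.17, *PGAM5* and *CD164*, and those to *CTSZ* were *NT5C3A*, at 0.41, *EAPP* and *UBXN1*. All libraries share the 3 populations and the 5 pigs, so these values describe a likeness and no more.

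Other cathepsins differed as well. Of 7 listed, *CTSE* and *CTSG* were not found by symbol in the count table and 4 passed the filter on low counts, *CTSA*, *CTSF*, *CTSK* and *CTSO*. Of these 4, 2 were called against each CD8α-high population, beside 18.2% of all tested genes against blood and 14.6% against liver CD8α-high cells. *CTSK*, which encodes a collagen-degrading cathepsin, had 71.3, 66.9, 45.3, 88.2 and 70.3 CPM in the blood libraries of pigs 1 to 5 and 23.7, 42.2, 13.2, 14.6 and 41.0 CPM in lrNK libraries, with no overlap. Its log2 fold change was -1.34 against blood (SE 0.30, adjusted p = 0.00273, edgeR) and -1.03 against liver CD8α-high cells (adjusted p = 0.0218, edgeR). *CTSF* was called lower against blood, at -1.03 (adjusted p = 0.0187, edgeR). *CTSO* was called higher against liver CD8α-high cells, at 1.13 (adjusted p = 0.0279, edgeR). The lower calls of *CTSF* against blood and of *CTSK* against liver CD8α-high cells, and the call of *CTSO*, were each lost in 5 to 9 of 15 fits that left out a pig or a library.

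Among other cystatins and serpins, 5 of 11 listed were tested, and 1 was called higher and 1 lower in lrNK cells against each CD8α-high population, beside the same 18.2% and 14.6% of all tested genes. The cystatin gene *CST6*, whose product inhibits cathepsins L and V and legumain, had 63.5, 29.3, 108, 62.1 and 54.6 CPM in lrNK libraries. It had 0 to 3.25 CPM in blood and 0.517 to 7.94 CPM in liver CD8α-high libraries, so no lrNK library overlapped either. The log2 fold change was 5.80 against blood (SE 0.73, adjusted p = 5.94e-06, edgeR) and 4.39 against liver CD8α-high cells (SE 0.65, adjusted p = 6.03e-05, edgeR), from 0 to 12 counts per blood library and 61 to 221 per lrNK library. *SERPINB9*, the gene of the inhibitor that protects cytotoxic cells from their own granzyme B, had 0 to 2.49 CPM in lrNK libraries against 5.69 to 18.9 in blood and 6.72 to 15.6 in liver CD8α-high libraries. Its log2 fold change was -3.24 against blood (SE 0.70, adjusted p = 0.00217, edgeR) and -2.84 against liver CD8α-high cells (SE 0.70, adjusted p = 0.00718, edgeR). *CSTB*, the gene of the cytosolic inhibitor stefin B, had 88.4 ± 18.1, 91.9 ± 18.1 and 94.5 ± 15.1 CPM in blood, liver CD8α-high and lrNK cells and was not called.

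**Figure D4:**
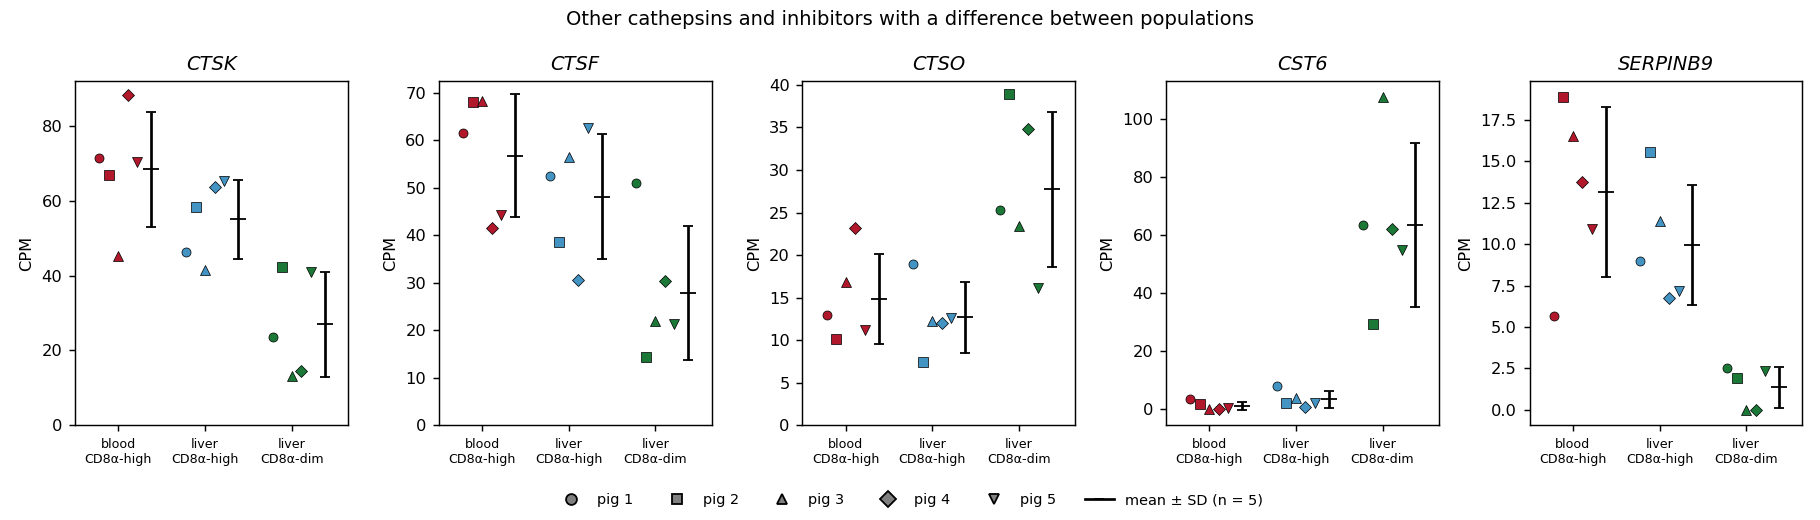
Levels in CPM (y axis) of 3 other cathepsin genes and the inhibitor genes *CST6* and *SERPINB9* in the 3 populations (x axis), with pigs as symbols and mean ± SD (n = 5) as bars. In lrNK libraries *CST6* lies between 29.3 and 108 CPM, above every other library, and *SERPINB9* lies at or below 2.49 CPM, below every other library.

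The granule proteins differed in direction. Of *GZMA*, *GZMB*, *GZMH*, *GZMK*, *GZMM*, *PRF1* and *GNLY*, 2 were called higher in lrNK than in blood cells, *GZMA* at 2.35 and *GZMK* at 6.84, and 4 lower, among them *GNLY* at -6.03, *GZMH* at -5.94 and the granzyme B gene *GZMB* at -2.63 (adjusted p = 0.000559, edgeR). In the comparison with liver CD8α-high cells 2 were also called higher and 4 lower, with *GZMB* at -2.44 (adjusted p = 0.00122, edgeR). There *GZMA* was no longer called without pig 4 (1.48, adjusted p = 0.0618, edgeR), which left 1 higher. Of all tested genes, 8.62% were called higher and 9.6% lower against blood, and 6.96% and 7.68% against liver CD8α-high cells. *CTSC*, whose product activates granzymes, was not called against blood, and neither was *PRF1*. Of the 6 MHC class II processing genes 5 were called higher in lrNK cells against blood and 6 against liver CD8α-high cells, beside 8.62% and 6.96% of all tested genes. B cells are also rich in MHC class II. Of the B cell markers, 5 of 5 tested were called higher against each population, with sums of 222 to 699 CPM in lrNK libraries. Which cells these marker transcripts came from, and their part in the MHC class II counts, was not tested. Among the 6 genes, *CD74*, the chain that cathepsin S cuts, had log2 fold changes of 1.57 (adjusted p = 0.000442, edgeR) and 1.90 (adjusted p = 7.68e-05, edgeR). In the lrNK libraries of pigs 1 to 5 *CD74* had 54.8, 82.1, 83.8, 99.1 and 54.8 CPM, so pig 4 was highest in *CD74*, in *CTSS* and in the B cell sum, and pigs 2 and 3 were close to each other. The calls of *SLA-DMA* and *SLA-DQA1* against blood were lost in 6 and 5 of 15 fits that left out a pig or a library. Both were lost without the lrNK library of pig 2 (adjusted p = 0.0555 and 0.0692, edgeR) and without the blood library of pig 5 (adjusted p = 0.0588 and 0.0560, edgeR), so 3 of the 5 calls were left, and also without pig 2 or pig 4 in all populations. Without pig 4, *SLA-DMB* against liver CD8α-high cells had a log2 fold change of 1.01 in place of 1.58 and was no longer called (adjusted p = 0.0518, edgeR). In the block fit by pig, the call of *IFI30*, the lysosomal thiol reductase gene, against liver CD8α-high cells was lost (adjusted p = 0.0535, edgeR), as it was in 7 of the 15 fits.

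Of 13 tested genes for sorting enzymes to lysosomes, 3 were called against blood, beside 18.2% of all tested genes, and all 3 were lower: *SCARB2*, the gene of a sorting receptor, at -0.93 (adjusted p = 0.00510, edgeR), the sortilin gene *SORT1* at -0.64 and *GNPTG* at -1.18. *GNPTG* encodes a subunit of the enzyme that tags lysosomal proteases with mannose 6-phosphate. Against liver CD8α-high cells 2 of the 13, beside 14.6% of all tested genes, were called lower, *GNPTAB* at -1.18 (adjusted p = 0.00931, edgeR) and *SCARB2* at -0.83. Without pig 5 neither was called (adjusted p = 0.0630 and 0.139, edgeR). *SCARB2* was also lost there without pig 2 (adjusted p = 0.0916, edgeR) and without the liver CD8α-high library of pig 5 (adjusted p = 0.0548, edgeR), and *SORT1* against blood without pig 2 (adjusted p = 0.0562, edgeR). Of 24 genes for the lysosomal membrane and its proton pump, 1 was called against blood and 3 against liver CD8α-high cells, beside 18.2% and 14.6% of all tested genes, and DESeq2 called 2 and 5. *LAPTM5* was called lower against blood at -1.10 (adjusted p = 0.00161, edgeR) and against liver CD8α-high cells at -1.01, and *MCOLN1* and *LAMP1* were called higher in the latter comparison at 1.88 and 0.69. The call of *MCOLN1* was lost in 11 and that of *LAMP1* in 12 of 15 fits that left out a pig or a library. *LAMP1* had a log2 fold change of 0.29 without the lrNK library of pig 3 (adjusted p = 0.162, edgeR) and an adjusted p of 0.0513 (edgeR) with the pig as a block. Of 26 other hydrolase genes, 2 were called in each comparison, beside the same shares, and DESeq2 called 2 and 3. Lower against blood were *IDS* at -1.04 and *ARSB* at -1.36. Against liver CD8α-high cells *GLB1* was called higher, at 2.91, and *ARSB* lower, at -1.34. The calls of *IDS*, *ARSB* and *GLB1* had adjusted p-values between 0.0309 and 0.0419 (edgeR). In the 15 fits, *IDS* lost its call in 9, *ARSB* in 8 against blood and 10 against liver CD8α-high cells, and *GLB1* in 8.

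Of 6 tested genes for other lysosomal proteases and their partners, 0 were called in any comparison by edgeR, where 18.2%, 14.6% and 0.064% of all tested genes were called against blood, against liver CD8α-high cells and between the CD8α-high populations. Against blood 2 of them had an unadjusted p under 0.05 and DESeq2 called 1, and against liver CD8α-high cells 1 and 1. *LGMN* itself, the gene of legumain, which matures several cathepsins, had 0 to 12 counts per library. *TFEB*, the gene of a transcription factor for lysosomal genes, was the 1 of 3 tested regulators that was called, against each population and beside the same 18.2% and 14.6%. It had 22.8, 14.4, 23.4, 25.8 and 17.0 CPM in lrNK libraries against 7.95 to 11.6 CPM in blood and 3.82 to 11.4 in liver CD8α-high libraries, with no overlap. The log2 fold change was 1.16 against blood (adjusted p = 0.0299, edgeR) and 1.56 against liver CD8α-high cells (adjusted p = 0.00539, edgeR), and with the pig as a block the former had an adjusted p of 0.0506 (edgeR) and was lost in 10 of 15 fits that left out a pig or a library. Between liver and blood CD8α-high cells 0 of the 94 tested genes of these lists were called by edgeR, beside 0.064% of all tested genes, 1 had an unadjusted p under 0.05 and DESeq2 called 0.

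**Figure D5:**
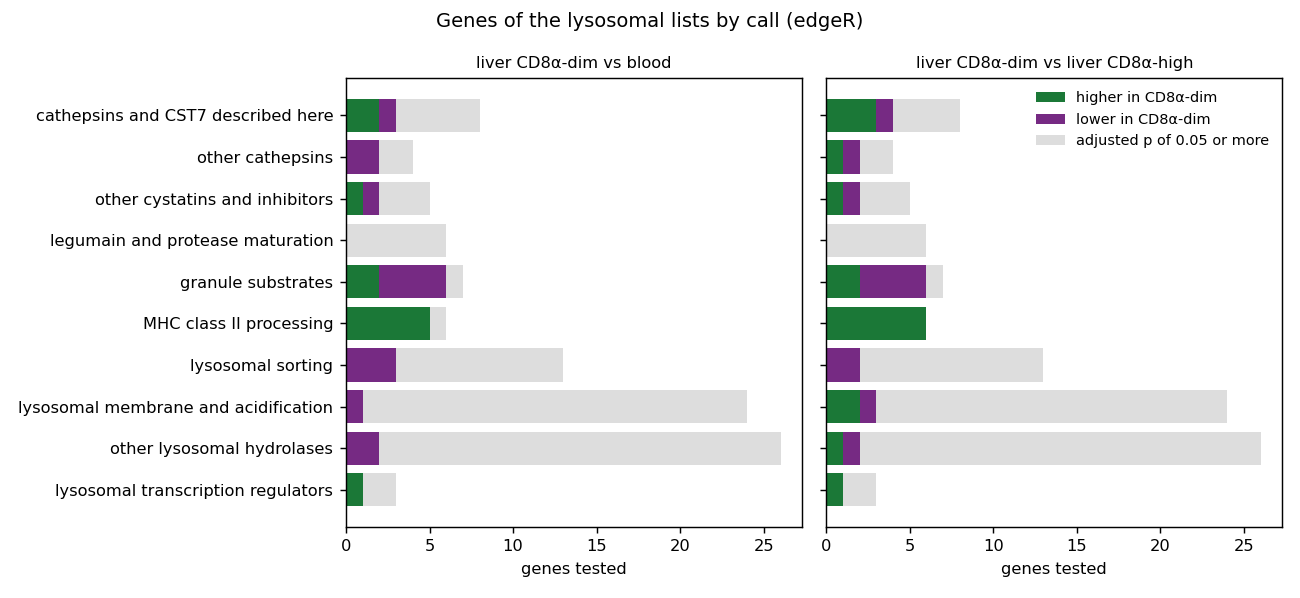
Number of tested genes (x axis) in each lysosomal list (y axis) called higher, called lower or not called in lrNK cells against blood (left) and against liver CD8α-high cells (right), by edgeR. The MHC class II list is called higher in 5 and 6 of 6 genes, and most genes of the membrane and hydrolase lists are not called.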

How the data were processed

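Read counts of 15 libraries, 5 of each population, were used as the authors deposited them, whole numbers per gene without normalization. Per the study's methods and the submitters' processing notes, RNA was sequenced with a 3′ kit (QuantSeq), trimmed with QuasR and aligned with HISAT2 to Sus scrofa 11.1; the counting tool and its strand setting are not given in the sources used here. All 15 columns matched a sample. Library totals ran from 2003499 to 5680221 counts, and no pair of libraries of a population agreed within sampling noise (chi-square per degree of freedom 9.82 to 51.3 over 30 pairs).

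The test was edgeR's (4.0.16, in R 4.3.3): TMM, filterByExpr with its default settings, the quasi-likelihood test, all libraries in a single fit without block, Benjamini-Hochberg adjustment over 10939 genes. SE is the size of the log2 fold change divided by the square root of F. Log2 CPM for likeness, for ratios of genes and for *CTSL* used a prior count of 2. Alternatives were DESeq2 1.42.0, its size factors, other filters, robust dispersion, the pig as a block, only the 2 populations compared, an adjusted p under 0.01, and leaving out each pig or library. The scripts were tested on simulated data. Libraries of a number come from the same pig, per the labels; their deviations from population means had a mean correlation of 0.107, lowest -0.0191, against -0.0265 between pigs. Gene positions come from a table of Sscrofa11.1, which matched 29862 genes. Plots were made in matplotlib 3.10.9 (Python 3.11.15).

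All 9 genes are named. Of each list, at most the 3 called genes of lowest adjusted p per comparison are named, with *PRF1*, *GZMA*, *GZMB*, *IFI30*, *CSTB*, *LGMN*, *SLA-DMA*, *SLA-DMB*, *SLA-DQA1*, *NCR1*, *KLRB1*, *CD8A*, *LYZ* and *XCR1* added after their values were seen, and for likeness the 3 nearest genes with a mean of 50 CPM or more. The genes and lists were chosen with earlier results of these data known. Sequences of these genes were not used here.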

Additional observations from a re-analysis of the deposited data

Results flagged for a closer look

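In liver CD8α-high NK cells the *CTSC* level of pig 3, 318 CPM, lay far above the other 4 libraries, which had 223 to 246 CPM. Its gap to the nearest library exceeded Dixon's 95% critical value for 5 samples. Of 25 combinations of gene and population examined this was the 1 beyond that value, and chance alone passes it in about 1 of 20.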

How the results depend on the processing

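With the pig as a replicate block, no call of the 8 tested genes changed. Against blood the blocked log2 fold changes in lrNK cells were 0.83 for *CTSB*, 0.93 for *CTSS* and -0.81 for *CTSD*. At an adjusted p under 0.01, lrNK cells had 532 genes higher and 667 lower than blood, and 402 higher and 545 lower than liver CD8α-high cells. In the latter comparison 2 of the 8 genes were then called higher, in place of 3, and 0 lower. A filter of 50 counts in 5 libraries also left 2 called higher there. Liver and blood CD8α-high cells had 0 and 0 genes at an adjusted p under 0.01. Between liver and blood CD8α-high cells the 5 genes higher and 2 lower became 16 and 6 with DESeq2, 12 and 6 without a filter, 12 and 4 with only these populations, and 2 higher with robust dispersion. *CTSB* in lrNK against liver CD8α-high cells had 0.66 (adjusted p = 0.0560, edgeR) with only these populations. The mean log2 ratio of *CST7* to *CTSH* in liver CD8α-high cells was 4.15 with the library at 0 counts of *CTSH* kept, whose omission was chosen after seeing the data.

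Leaving out a pig or a library in turn gave these lowest and highest values. Genes called in lrNK against blood ran from 687 to 1110 higher and 768 to 1191 lower, against liver CD8α-high cells from 458 to 820 and 593 to 944, and in liver against blood CD8α-high cells from 0 to 6 in each direction. Of the 8 genes, 2 to 3 were called higher and 0 to 1 lower against blood, and 1 to 3 and 0 to 1 against liver CD8α-high cells. The log2 fold change against blood ran from -1.06 to -0.61 for *CTSD* and from 0.33 to 0.68 for *CST7*. Against liver CD8α-high cells it ran from 0.49 to 0.77 for *CTSB*, -0.92 to -0.60 for *CTSD* and 2.47 to 3.36 for *CTSH*. These fits have fewer samples; the cause of other changes was not tested. No called value changed sign. Genes with few counts, *CTSH*, *CTSZ* and *CTSL*, are measured with low precision in a single library. Over the lrNK libraries *CTSH* also ran from 13 to 70 counts and *CTSZ* from 9 to 53. The parts of depth and of spread between pigs were not tested.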
